A study of Rattus norvegicus with 8 samples.

Results

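The mitochondrial carriers of the SLC25 family were described in rat N27 cells after exposure to manganese, MPP+ or 3-NPA. A gene belonged to the set if its symbol on the array was Slc25a followed by a number, or was Ucp1, Ucp2 or Ucp3. Membership thus rested on names, but the rule was chosen with earlier results of these data known. The array held 44 such genes among 26214 genes, with 59 probes, and 36 of the 44 were among the 16908 genes that were bright enough to be tested. N27 is an immortalised line from embryonic rat midbrain that the labels describe as dopamine producing, and it stands here for dopaminergic neurons as 1 transformed line in culture. The control group was N27 cells with no toxin named in the labels. The Mn group received 150 µM manganese for 48 h, and the MPP+ group received 250 µM of MPP+, an inhibitor of respiratory complex I, for 48 h. The fourth group carries the label 3-NPA, read here as 3-nitropropionic acid, which inhibits succinate dehydrogenase, and neither a dose nor a time nor a vehicle is stated for it. Every group had 2 arrays hybridised with Cy3-labelled RNA alone, and nothing in the labels says that the 2 came from separate cultures, so the p-values measure the spread between these arrays, which may be technical.

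SLC25 proteins sit mostly in the inner mitochondrial membrane, which is otherwise closed to charged metabolites, and each moves a small set of substrates across it. Some exchange ADP for ATP or bring in phosphate for oxidative phosphorylation, others move citric acid cycle intermediates, amino acids, fatty acyl groups, cofactors, nucleotides, iron or glutathione, and the uncoupling proteins belong to the same fold. In neurons the malate-aspartate shuttle, which needs the oxoglutarate carrier and an aspartate/glutamate carrier, carries the reducing equivalents of glycolysis into the matrix.

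Levels are given as log2 of the processed signal relative to the 75th percentile of the same array, and a level of 1 probe was not set against that of another. From 32711 to 41354 spots per array were well above background, fewest on the 2 control arrays, and 0 spots were saturated. All arrays lay on 1 slide, and the 3-NPA arrays were extracted from the scan in a later run than the other 6, so that run and 3-NPA cannot be told apart. Of the 11 dopaminergic markers on the array, Th, Slc18a2 and Nr4a2 were above background on all 8 arrays and Slc6a3, Lmx1a, Foxa2 and En2 on none. In cell culture RNA of this kind, fewer cells that express a gene and less RNA per cell cannot be told apart.

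Of 36 carrier genes tested, 12 were called against control with at least 1 toxin, where 43.5% of all genes were. With 3-NPA 11 were called, where 38.3% of all genes were, so most calls fell to 3-NPA over all genes too. With 3-NPA, Slc25a30, a relative of the uncoupling proteins, rose 3.90-fold and the iron carrier Slc25a37 rose 3.17-fold, while the carnitine/acylcarnitine carrier Slc25a20 fell 1.81-fold and the oxoglutarate carrier Slc25a11 fell 1.39-fold. With MPP+, the pyrimidine nucleotide carrier Slc25a33 rose 2.75-fold and the glutathione carrier Slc25a39 rose 1.65-fold. With Mn, Slc25a37 rose 1.97-fold and the second glutathione carrier gene, Slc25a40, fell 1.40-fold. These folds are from 2 arrays per group, with their errors below. Both calls with Mn, and that of Slc25a39 with MPP+, were lost on the 4 arrays of the pair alone.

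A gene was called where the adjusted p of the limma fit, by the method of Benjamini and Hochberg over all 16908 genes, was below 0.05. The fit gave each gene a spread shared by all 4 groups. Over the carrier genes, the median difference between the 2 arrays of a group was 0.22 in control and 0.24 with Mn. It was 0.08 with MPP+ and 0.09 with 3-NPA. The errors may thus be too small for Mn against control and too large for 3-NPA against MPP+. With Mn, 2 of 36 carrier genes were called, 1 higher and 1 lower, where 7.66% of all genes were, 4.5% higher and 3.16% lower. With MPP+, 5 of 36 were called, all 5 higher, where 13.9% of all genes were called, 7.47% higher and 6.47% lower. With 3-NPA, 11 of 36 were called, 7 higher and 4 lower, where 38.3% of all genes were called, 22.3% higher and 16% lower. The 7 include Slc25a47, whose control arrays were below background. Among genes above background on all 8 arrays, 6 carrier genes were higher and 6 lower with 3-NPA. There 43.5% of all genes were called, and 47.5% of those calls were higher. The share of carrier genes called lay near that of all genes with each toxin, and whether the shares differ was not tested.

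Across the 36 genes the median log2 change was -0.03 with Mn, 0.16 with MPP+ and -0.08 with 3-NPA, beside -0.02, 0.02 and 0.05 over all genes. With the changes of genes below background in a group set to their bound, or to 0 where none could be given, the medians of the 36 were 0, 0.14 and -0.01. Over the 30 carrier genes above background on all 8 arrays the medians were -0.03, 0.17 and -0.11, and the changes ran from -0.49 to 0.98 with Mn, from -0.37 to 1.46 with MPP+ and from -0.86 to 1.96 with 3-NPA. The arrays of the toxin and the control did not overlap for 18 carrier genes with Mn, 24 with MPP+ and 26 with 3-NPA, where 50.5%, 63.5% and 71.9% of all genes did not overlap. In all, 12 carrier genes were called with at least 1 toxin, where 43.5% of all genes were, and 24 with none. Slc25a37 and Slc25a40 were called with all 3 toxins, where 3.5% of all genes were, and the 3 comparisons share the control arrays.

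These counts moved with single arrays and with the scaling. Without either MPP+ array the MPP+ count fell to 1, and without the first 3-NPA array the 3-NPA count fell to 7. The Mn count fell to 0 without the first Mn array or without either MPP+ or either 3-NPA array, and to 1 without the second control array. With each array scaled to its median instead, 5 carrier genes were called higher and 9 lower with 3-NPA, where 36.1% of all genes were called. Normexp background correction gave 3 higher and 1 lower with Mn, 7 and 1 with MPP+, and 6 and 6 with 3-NPA, where 6.72%, 16.2% and 35.9% of all genes were called.

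**Figure D1:**
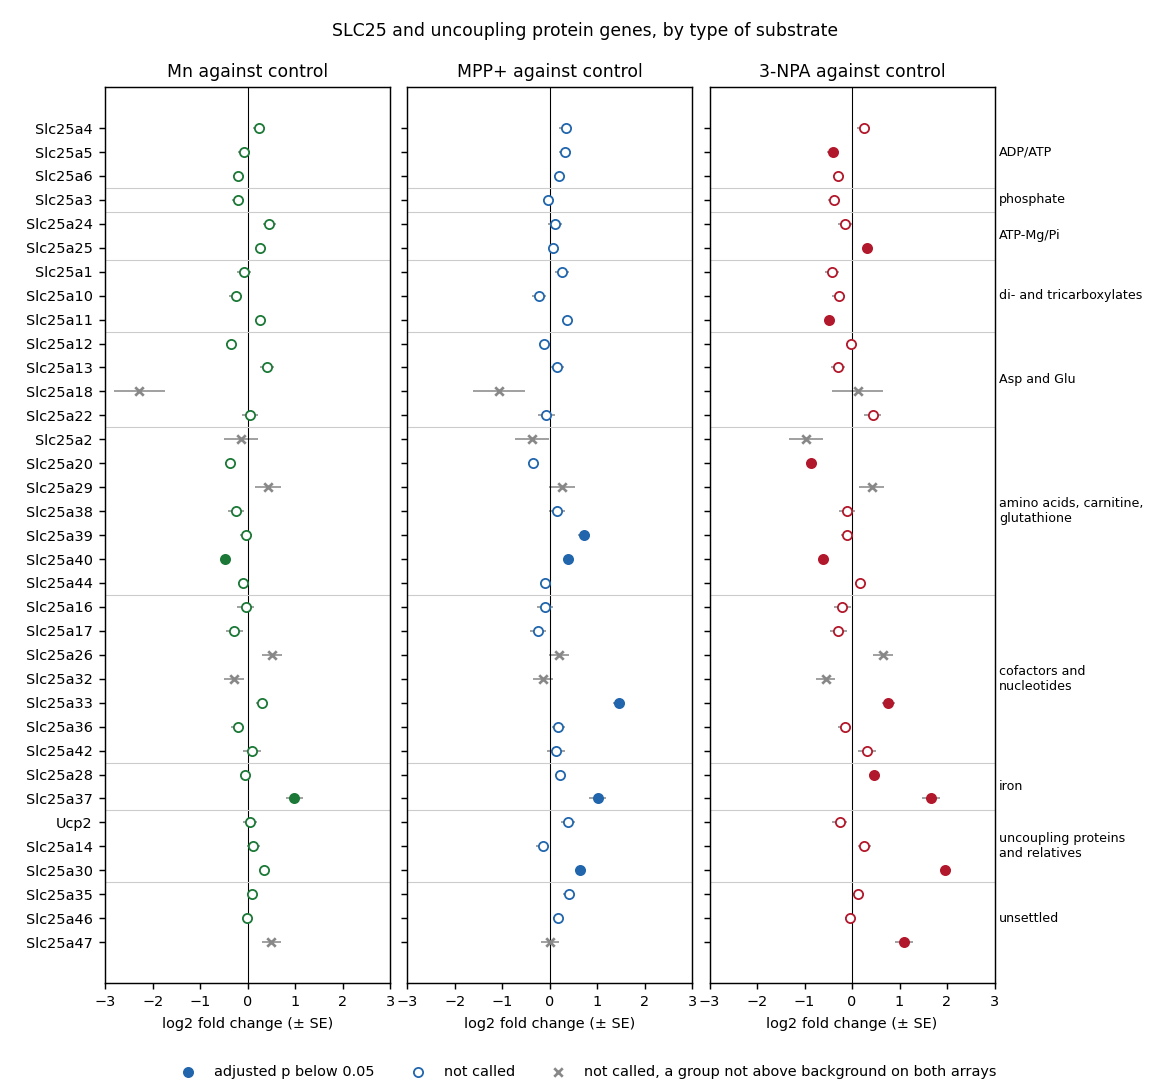
Log2 fold change (± SE) of 35 carrier genes tested with Mn, MPP+ and 3-NPA against control, 2 arrays per group, in blocks by type of substrate. Filled points have an adjusted p below 0.05 and crosses mark uncalled genes for which a group was not above background on both arrays, and Slc25a47 with 3-NPA is filled although its control arrays were below background. Most points lie near 0, and Slc25a30 and Slc25a37 lie farthest to the right with 3-NPA.

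Of the ADP/ATP and phosphate carriers, which serve ATP synthesis, only Slc25a5 was called against control, and with 3-NPA alone. Slc25a5, an ADP/ATP carrier that exports ATP to the cytosol, measured 4.15 and 3.96 in control, 3.90 and 4.03 with Mn, 4.25 and 4.51 with MPP+, and 3.67 and 3.65 with 3-NPA. The 3-NPA arrays lay below all others and the MPP+ arrays above all others. The fall with 3-NPA was -0.40 ± 0.12 (SE; 1.32-fold, adjusted p = 0.0494), at the edge of the threshold, and 18 of 21 alternative settings put it outside. RefSeq lists 9 pseudogenes of Slc25a5, which could share signal with it.

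Slc25a4, the ADP/ATP carrier of heart and muscle that neurons also make, measured 3.20 and 3.47 in control, 3.71 and 3.44 with Mn, 3.67 and 3.67 with MPP+, and 3.57 and 3.60 with 3-NPA. The MPP+ and 3-NPA arrays were above both control arrays, but neither difference passed the test (adjusted p = 0.154 and 0.196). The gene named Slc25a6 on the array was called with 0 of the 3 toxins, and its probe was designed to a model of a non-coding transcript that matched no symbol in the RefSeq table, so its name rests on the array alone. Slc25a3, which brings phosphate into the matrix, measured 3.60 and 3.83 in control, 3.51 and 3.51 with Mn, 3.58 and 3.79 with MPP+, and 3.29 and 3.38 with 3-NPA. Its difference of -0.38 with 3-NPA lay just outside the threshold (adjusted p = 0.0523). It was called with scaling by array medians, and not with normexp background correction or scaling by quantiles.

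Of the calcium-regulated ATP-Mg/phosphate carriers, which set the adenine nucleotide content of the matrix, Slc25a25 was called with 3-NPA. It measured 2.04 and 2.10 in control, 2.36 and 2.31 with Mn, 2.17 and 2.08 with MPP+, and 2.38 and 2.38 with 3-NPA, as the mean of 10 spots per array. The Mn arrays lay 0.27 over control, which did not pass (adjusted p = 0.119). The 3-NPA arrays exceeded all others, by 0.05 over Mn (adjusted p = 0.735, not called) and by 0.31 ± 0.08 over control (1.24-fold, adjusted p = 0.0315). The call against control was lost with each array scaled to its median (0.17, adjusted p = 0.281) and without any 1 of the control, MPP+ or 3-NPA arrays. Slc25a24 of the same type was not called with any of the 3 toxins against control.

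The carriers of di- and tricarboxylates link the citric acid cycle to the cytosol, and Slc25a11, which exchanges oxoglutarate for malate, was the member of this type that was called. It measured 1.12 and 1.16 in control, 1.32 and 1.46 with Mn, 1.48 and 1.51 with MPP+, and 0.65 and 0.68 with 3-NPA. The 3-NPA arrays lay below the control arrays and those of the other toxins above them. The fall with 3-NPA was -0.48 ± 0.09 (adjusted p = 0.00866), which without the first 3-NPA array no longer passed (adjusted p = 0.0631), and the difference of 0.35 with MPP+ lay just outside the threshold (adjusted p = 0.0505).

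Slc25a1, the citrate carrier that feeds fatty acid synthesis, measured -1.20 and -1.49 in control, -1.56 and -1.29 with Mn, -1.12 and -1.06 with MPP+, and -1.87 and -1.67 with 3-NPA. Slc25a10, the dicarboxylate carrier, measured 2.09 and 1.78 in control, 1.55 and 1.79 with Mn, 1.74 and 1.67 with MPP+, and 1.59 and 1.71 with 3-NPA. The 3-NPA arrays were lower than both control arrays for each of them, but the differences of -0.42 and -0.28 did not pass (adjusted p = 0.071 and 0.167).

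Slc25a12 and Slc25a13 are the aspartate/glutamate carriers of the malate-aspartate shuttle. Slc25a12 measured 2.71 and 2.88 in control, 2.54 and 2.35 with Mn, 2.70 and 2.64 with MPP+, and 2.76 and 2.79 with 3-NPA. Slc25a13 measured -3.77 and -3.70 in control, -3.44 and -3.21 with Mn, -3.47 and -3.70 with MPP+, and -4.17 and -3.88 with 3-NPA. Neither was called against control, and the 95% interval of the 3-NPA difference of Slc25a12 ran from -0.29 to 0.25. A second probe of Slc25a13 gave -0.56 with 3-NPA (adjusted p over all probes 0.0153), where the brighter gave -0.29. The glutamate carriers Slc25a18 and Slc25a22 were not called against control, and Slc25a18 was below background on all 4 control and Mn arrays.

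Slc25a20 brings acylcarnitines into the matrix for fatty acid oxidation. It measured 2.29 and 2.05 in control, 1.80 and 1.79 with Mn, 1.81 and 1.79 with MPP+, and 1.34 and 1.29 with 3-NPA. All 6 toxin arrays lay below the control arrays, with the 3-NPA arrays lowest. The fall was -0.86 ± 0.11 with 3-NPA (adjusted p = 0.00215), called under each of the 21 alternatives run, and the differences of -0.37 with Mn and -0.37 with MPP+ did not pass (adjusted p = 0.0915 and 0.0729). Of the other carriers of this type, Slc25a2, Slc25a29, Slc25a38 and Slc25a44, which carry amino acids, were called with none of the toxins against control.

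Slc25a39 and Slc25a40 bring glutathione, the main thiol antioxidant, into mitochondria, and both were higher with MPP+. Slc25a39 measured 1.83 and 1.51 in control, 1.59 and 1.66 with Mn, 2.40 and 2.37 with MPP+, and 1.57 and 1.55 with 3-NPA. The MPP+ arrays stood above the other 6, which lay together. The rise was 0.72 ± 0.12 (adjusted p = 0.0174), and a second probe gave 0.70 (adjusted p over all probes 0.0115). The call was lost without either MPP+ array and on the 4 arrays of the pair alone, and RefSeq lists 8 pseudogenes of the gene.

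Slc25a40 measured -0.90 and -0.83 in control, -1.39 and -1.32 with Mn, -0.48 and -0.46 with MPP+, and -1.50 and -1.44 with 3-NPA. The 4 groups did not overlap at this probe, with MPP+ above control and Mn and 3-NPA below it. The differences were -0.49 ± 0.08 with Mn (1.40-fold, adjusted p = 0.0263), 0.39 ± 0.08 with MPP+ (1.31-fold, adjusted p = 0.0328) and -0.61 ± 0.08 with 3-NPA (1.52-fold, adjusted p = 0.00314). The Mn call was lost under 12 of 22 alternatives, the leave-out of either Mn array and of the second control array among them, and the MPP+ call under 8 of 22, the leave-out of any control or MPP+ array among them.

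A dimmer probe that the array also names Slc25a40 gave another pattern. The accession of neither probe matched a symbol in the RefSeq table, so both names rest on the array alone. The probe used above lies at chr4:21556212-21556271 of the rn4 assembly and the dimmer probe, 45226 bases away, at chr4:21510986-21511045. The dimmer probe measured -6.88 and -6.51 in control and -6.99 and -6.67 with Mn, not well above background on these 4 arrays, and -5.45 and -5.37 with MPP+ and -5.11 and -5.39 with 3-NPA, above background on these 4. Against Mn it was at least 1.57-fold higher with MPP+ and at least 1.76-fold higher with 3-NPA, the bound being set by the lowest signal above background on the Mn arrays. Against control no fold can be given, since the dimmest signals above background on the control arrays were brighter. The dimmer probe therefore fixes no direction against control.

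**Figure D2:**
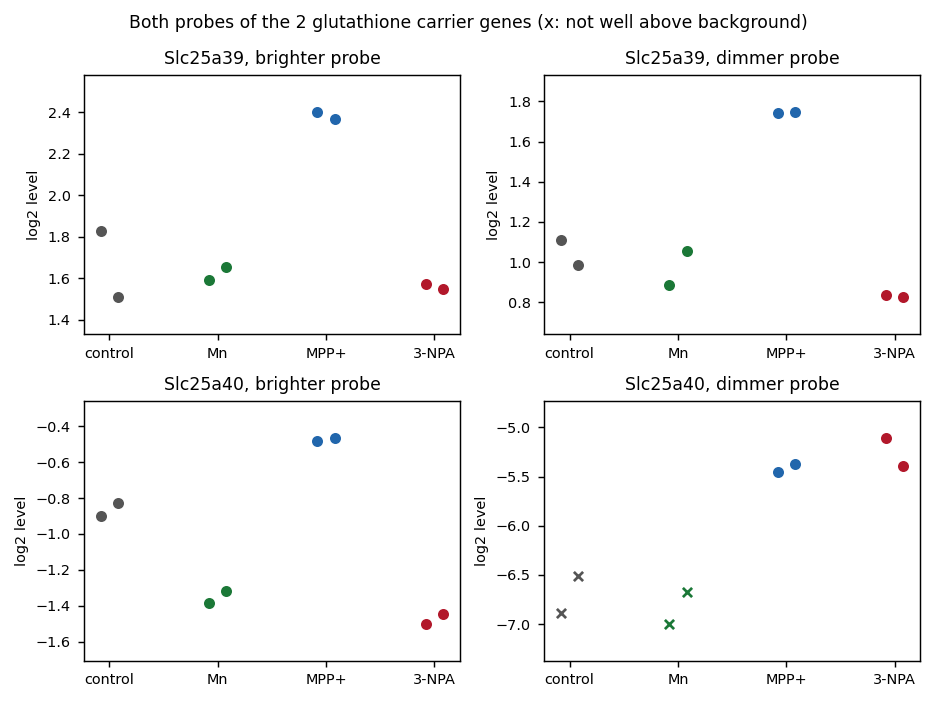
Log2 level on each of the 8 arrays for both probes of Slc25a39 and Slc25a40, 1 point per array, each probe on its own scale. The 2 probes of Slc25a39 show the same rise with MPP+, while the dimmer probe of Slc25a40 was not well above background in control and Mn (crosses) and was above it with MPP+ and 3-NPA.

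Among the carriers of cofactors and nucleotides, Slc25a33 moved most. Slc25a33 imports pyrimidine nucleotides, which mitochondrial DNA and RNA synthesis use. It measured -1.06 and -0.91 in control, -0.53 and -0.85 with Mn, 0.51 and 0.44 with MPP+, and -0.24 and -0.19 with 3-NPA. Every toxin array lay above both control arrays, those of MPP+ farthest. The rise was 1.46 ± 0.13 with MPP+ (adjusted p = 0.00279) and 0.77 ± 0.13 with 3-NPA (1.70-fold, adjusted p = 0.00644), and both were called under every alternative run (22 and 21). The difference of 0.30 with Mn did not pass (adjusted p = 0.216). A second probe gave 2.06 with MPP+ (adjusted p over all probes 0.006) and 0.84 with 3-NPA (0.0377), although it was above background on 1 of the 2 control arrays.

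Of the same type, Slc25a16, Slc25a17, Slc25a26, Slc25a32, Slc25a36 and Slc25a42 were called with none of the toxins against control, and Slc25a26, which carries S-adenosylmethionine, lay just outside with 3-NPA (adjusted p = 0.0505) with control arrays below background.

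The promoters of 4 called genes are shown to set the carrier that rose most with MPP+ beside the 2 glutathione carriers and a carrier that shares a motif with it. The bases are the 250 before the start site, from RefSeq on the GRCr8 assembly, written 5′ to 3′ on the strand of the gene, which is the minus strand for all 4. They lie at chr5:165502974-165503223 for Slc25a33, chr3:36116582-36116831 for Slc25a25, chr10:87866974-87867223 for Slc25a39 and chr4:26631384-26631633 for Slc25a40. Capitals mark the cAMP response element TGACGTCA and the E-box CACGTG, the sequence that basic helix-loop-helix factors such as MYC and USF bind.
Slc25a33: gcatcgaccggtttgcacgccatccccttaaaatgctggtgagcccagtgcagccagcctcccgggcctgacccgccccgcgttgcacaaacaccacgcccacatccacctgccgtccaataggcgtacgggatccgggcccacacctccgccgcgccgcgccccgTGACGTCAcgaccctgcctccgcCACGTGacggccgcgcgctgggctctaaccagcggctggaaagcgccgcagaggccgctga
Slc25a25: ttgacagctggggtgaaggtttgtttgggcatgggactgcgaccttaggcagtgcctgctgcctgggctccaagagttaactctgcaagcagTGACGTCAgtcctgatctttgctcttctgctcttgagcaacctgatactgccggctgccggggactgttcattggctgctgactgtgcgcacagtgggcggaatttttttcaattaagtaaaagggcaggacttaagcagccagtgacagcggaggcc
Slc25a39: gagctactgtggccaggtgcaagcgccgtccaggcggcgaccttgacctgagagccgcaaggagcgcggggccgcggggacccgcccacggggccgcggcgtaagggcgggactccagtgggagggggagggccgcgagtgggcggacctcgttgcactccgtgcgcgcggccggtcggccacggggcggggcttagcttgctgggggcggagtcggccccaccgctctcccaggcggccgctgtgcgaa
Slc25a40: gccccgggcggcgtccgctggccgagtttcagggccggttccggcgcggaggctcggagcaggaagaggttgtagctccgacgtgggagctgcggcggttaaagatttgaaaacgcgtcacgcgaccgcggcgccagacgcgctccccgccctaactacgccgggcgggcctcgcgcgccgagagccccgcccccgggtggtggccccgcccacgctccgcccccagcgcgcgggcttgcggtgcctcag

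Slc25a33 held the cAMP response element with its first base 84 bases before the start site and the E-box 61 bases before it, and Slc25a25 held the cAMP response element 158 bases before. Searched on both strands over the 250 bases before and the 50 after the start site, the cAMP response element stood in 2 of the 37 carrier promoters in the table and in 1.83% of all 33469 promoters. That motif was chosen after the promoters had been read, so its 2 of 37 cannot be weighed against the share of all promoters. The E-box stood in 2 of 37, Slc25a33 and Slc25a2, and in 6.42% of all. The antioxidant response element core TGACNNNGC stood in 2 of 37 (Slc25a25 and Slc25a3) and in 12.1% of all, and the hypoxia site NACGTG, which overlaps the E-box, in 6 of 37 and in 19.2% of all. The composite C/EBP-ATF element TGATGNAA stood in 0 of 37 and in 3.98% of all, and the site of NRF1, a regulator of nuclear genes for mitochondria, in 0 of 37 and in 4.25% of all. The Sp1 GC box GGGCGG stood in 23 of 37 and in 33.1% of all, with Slc25a33, Slc25a25, Slc25a39 and Slc25a40 each among the 23. A match here is only a match of letters.

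Slc25a37 and Slc25a28, the mitoferrins, import iron for haem and iron-sulphur clusters, and both were higher with 3-NPA. Slc25a37 measured -3.62 and -3.95 in control, -2.62 and -2.99 with Mn, -2.68 and -2.87 with MPP+, and -2.03 and -2.21 with 3-NPA. All 6 toxin arrays lay above both control arrays, those of Mn and MPP+ overlapped, and those of 3-NPA were highest. The rise was 0.98 ± 0.18 with Mn (adjusted p = 0.0309), 1.01 ± 0.18 with MPP+ (2.01-fold, adjusted p = 0.0199) and 1.66 ± 0.18 with 3-NPA (adjusted p = 0.00137). The 3-NPA call held under all 21 alternatives (1.08 to 1.83, the lowest with normexp background correction), while the Mn call was lost under 9 of 22, the leave-out of the first Mn or the second control array among them, and the MPP+ call without either MPP+ or the second control array.

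Slc25a28 measured 2.86 and 2.97 in control, 2.79 and 2.94 with Mn, 3.10 and 3.15 with MPP+, and 3.32 and 3.45 with 3-NPA. The 3-NPA arrays were highest and Mn overlapped control. The rise with 3-NPA was 0.47 ± 0.10 (1.38-fold, adjusted p = 0.015), and a second probe gave 0.52 (adjusted p over all probes 0.0211). The call was lost with each array scaled to its median (0.32, adjusted p = 0.0955) and without the first control array or either 3-NPA array.

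Slc25a30, a kidney-rich carrier close to the uncoupling proteins, showed the largest change of the carrier genes above background on all 8 arrays. It measured 0.15 and 0.06 in control, 0.54 and 0.35 with Mn, 0.83 and 0.66 with MPP+, and 2.13 and 2.00 with 3-NPA. The 4 groups did not overlap and stood in the order control, Mn, MPP+, 3-NPA. The rise was 1.96 ± 0.12 with 3-NPA (adjusted p = 0.000226), called under all 21 alternatives (1.82 to 2.03), and 0.64 ± 0.12 with MPP+ (1.56-fold, adjusted p = 0.0209), lost without either MPP+ array, without the second control array and on the 4 arrays of the pair alone. The difference of 0.34 with Mn did not pass (adjusted p = 0.136).

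Ucp2, an uncoupling protein found in many tissues, measured -1.72 and -1.73 in control, -1.86 and -1.52 with Mn, -1.44 and -1.27 with MPP+, and -2.10 and -1.88 with 3-NPA. The MPP+ arrays were above and the 3-NPA arrays below control, without passing the test (adjusted p = 0.151 and 0.211). Slc25a14, of the same type, was not called with any of the toxins.

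Of the genes whose substrate is unsettled, Slc25a35 and Slc25a46, an outer membrane protein tied to mitochondrial shape, were not called. Slc25a47, known from liver, measured -5.88 and -5.47 in control, -5.04 and -5.32 with Mn, -5.77 and -5.56 with MPP+, and -4.72 and -4.43 with 3-NPA. It was not well above background on either control array, so the 3-NPA difference (adjusted p = 0.00706) is at least 1.02-fold, and with normexp background correction it was 0.20 and not called (adjusted p = 0.185). The 8 genes with no probe bright enough to test were Slc25a15, Slc25a21, Slc25a27, Slc25a34, Slc25a41, Slc25a45, Ucp1 and Ucp3, among them the thermogenic Ucp1 of brown fat and the Ucp3 of muscle, and of these Slc25a41 and Slc25a45 were above background on 1 array each and the other 6 on 0.

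**Figure D3:**
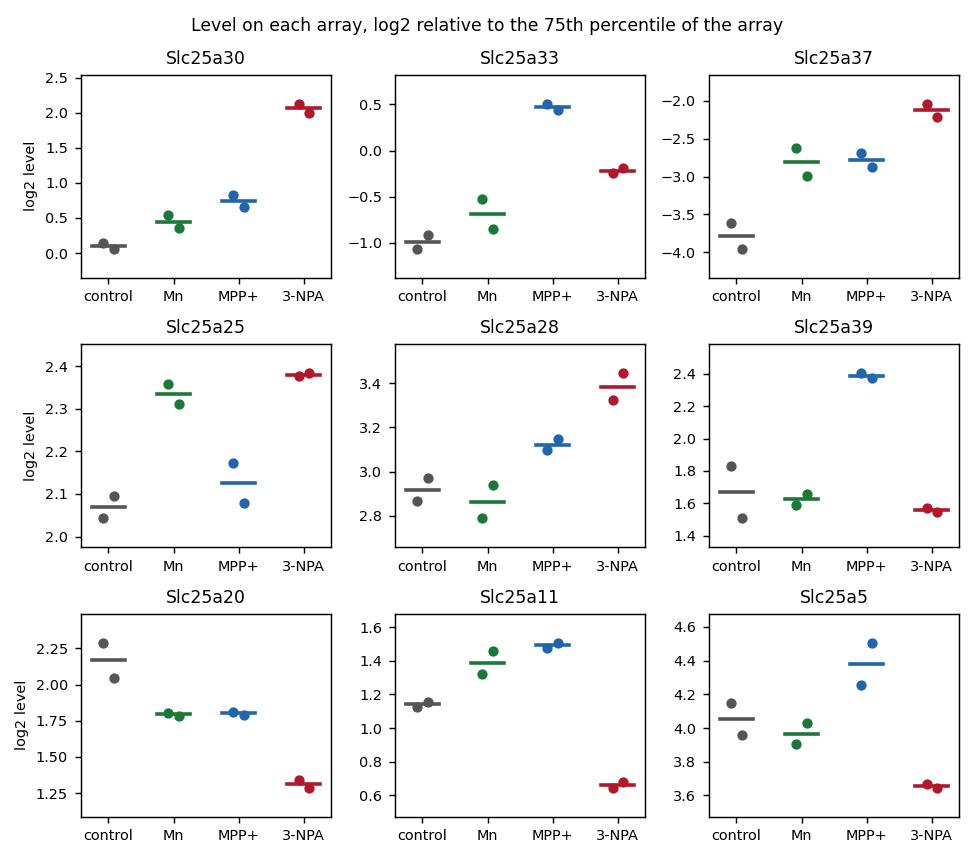
Log2 level relative to the 75th percentile of the array for 9 carrier genes called with at least 1 toxin, 1 point per array and a bar at the mean of 2 arrays, with a scale of its own in each panel. Slc25a30, Slc25a37, Slc25a25 and Slc25a28 are highest with 3-NPA, Slc25a33 and Slc25a39 are highest with MPP+, and Slc25a20, Slc25a11 and Slc25a5 are lowest with 3-NPA.

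The toxins were then set against each other, in the same fit. Between 3-NPA and MPP+, whose doses and times cannot be matched from the labels, 13 of 36 carrier genes were called, where 31% of all genes were. Of these, 4 were higher and 9 lower with 3-NPA, where 18.1% and 12.9% of all genes were. The arrays of the pair did not overlap for 32 of 36, where 76.6% of all genes did not. The median over the 36 was -0.16, beside 0.03 over all genes. Scaling each array to its median gave 2 higher and 15 lower, where 37.2% of all genes were called and 27.8% of those calls were higher. The count fell to 4 to 6 without any 1 of the 4 arrays of the pair.

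Among the genes higher with 3-NPA than with MPP+ were Slc25a30 by 1.32 ± 0.12 (2.50-fold, adjusted p = 0.000945), Slc25a47 and Slc25a37. Lower were the glutathione carriers Slc25a40 by -0.998 ± 0.08 (adjusted p = 0.000826) and Slc25a39 by -0.83 ± 0.12 (adjusted p = 0.00518), and the oxoglutarate carrier Slc25a11 by -0.83 ± 0.09 (adjusted p = 0.00173). The other 6 lower genes were the ADP/ATP carrier Slc25a5 (-0.72), the gene named Slc25a6 (-0.48), the citrate carrier Slc25a1 (-0.68), Slc25a33 (-0.69), Ucp2 (-0.64) and Slc25a20 (-0.49), with adjusted p from 0.00861 to 0.0235. Of the 13, the calls of Slc25a30, Slc25a11, Slc25a39 and Slc25a40 held under each of the 21 alternatives, and the dimmer probe of Slc25a40 gave 0.16 (adjusted p over all probes 0.543). The other 9 were each lost without at least 1 array of the pair.

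**Figure D4:**
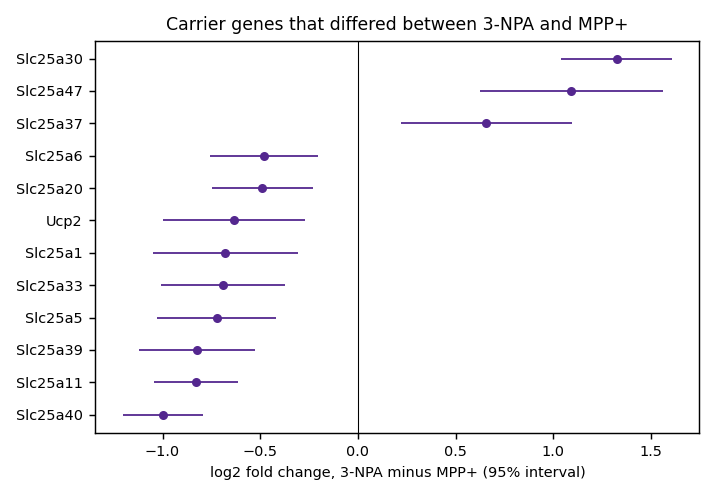
Log2 fold change of 3-NPA minus MPP+ with its 95% interval for 12 carrier genes called between the 2 toxins, 2 arrays per group. The 3 genes to the right of 0 were higher with 3-NPA and the 9 to the left were lower.

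Between MPP+ and Mn, both given for 48 h at different doses, 3 of 36 carrier genes were called, all 3 higher with MPP+, where 9.1% of all genes were called, 4.22% higher and 4.88% lower. The arrays of the pair did not overlap for 25 of 36, where 61.9% of all genes did not. They were Slc25a40 by 0.88 ± 0.08 (1.84-fold, adjusted p = 0.00438), Slc25a33 by 1.16 ± 0.13 (2.23-fold, adjusted p = 0.00734) and Slc25a39 by 0.76 ± 0.12 (1.70-fold, adjusted p = 0.0194). The call of Slc25a40 held under each of 22 alternatives, and that of Slc25a33 was lost without either MPP+ array. That of Slc25a39 was lost under 7 of 22, namely without any 1 of the Mn, MPP+ or 3-NPA arrays and without a filter on dim probes. The count fell to 1 without either MPP+ array. For the iron carrier Slc25a37 the difference was 0.03, with a 95% interval from -0.41 to 0.46.

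Between 3-NPA and Mn, 10 of 36 were called, 6 higher and 4 lower with 3-NPA, where 28.6% of all genes were called, 16.9% higher and 11.7% lower. The arrays did not overlap for 23 of 36, where 66.4% of all genes did not. Slc25a30 was higher by 1.62 ± 0.12 (3.08-fold, adjusted p = 0.000569), and Slc25a11 was lower by -0.72 ± 0.09 (1.65-fold, adjusted p = 0.00281). These 2 calls held under all 21 alternatives run, and 7 others were each lost without at least 1 array of the pair. The iron carriers Slc25a28 and Slc25a37 and the nucleotide carrier Slc25a33 were higher by 0.52, 0.68 and 0.47. Slc25a18, below background on the Mn arrays, was at least 2.17-fold higher. Slc25a13 (-0.70), Slc25a24 (-0.60) and Slc25a20 (-0.48) were lower. Second probes gave 0.25 for Slc25a28 (adjusted p over all probes 0.196), 0.37 for Slc25a33 (0.309) and -0.32 for Slc25a24 (0.686), none of them called. The second probe of Slc25a13 gave -0.71 (0.00895). Scaling each array to its median gave 3 higher and 7 lower, where 30.8% of all genes were called and 33.2% of those calls were higher. Equal replicate numbers of Mn and 3-NPA correlated at 0.50 in their deviations. A block of the replicate number gave 5 higher and 5 lower, where 26.9% of all genes were called. The count fell to 3 and 4 without the first and the second 3-NPA array and to 6 without the second Mn or the second MPP+ array.

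Genes that work beside the carriers were taken from 2 lists. Of 27 other mitochondrial transporters and pores, all tested, 1 was higher and 2 lower with Mn, 4 and 1 with MPP+, and 3 and 5 with 3-NPA, with medians of -0.09, -0.01 and 0.03. Over all genes 4.5% were higher and 3.16% lower with Mn, 7.47% and 6.47% with MPP+, and 22.3% and 16% with 3-NPA. The sideroflexins, of which Sfxn1 carries serine into mitochondria, gave several of the calls. Sfxn3 was higher by 0.97 with Mn (adjusted p = 0.0151) and by 0.64 with 3-NPA (0.0149), and Sfxn1 by 1.15 (0.00379) and Sfxn2 by 1.70 (0.0359) with MPP+. Sfxn5 was lower by -0.53 with MPP+ (adjusted p = 0.044) and by -0.60 with 3-NPA (0.0137). Ghitm, an inner membrane protein that affects cristae, was higher by 1.34 with MPP+ (0.00321). Letm1, an ion exchanger, was lower by -0.50 with Mn (0.0396), Ccdc109b, a subunit of the calcium uniporter, was lower by -0.49 with Mn (0.0488) and higher by 0.50 with 3-NPA (0.0138), and the transhydrogenase Nnt was lower by -0.43 with 3-NPA (0.0196).

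Of 58 partner enzymes tested, of 64 on the array, 5 were higher and 4 lower with Mn, 15 and 5 with MPP+, and 13 and 9 with 3-NPA, with medians of -0.00, 0.04 and 0.06, beside the same shares over all genes. The 15 of 58 higher with MPP+ stand beside 7.47% of all genes, and the 13 higher and 9 lower with 3-NPA beside 22.3% and 16%. Mthfd2, a mitochondrial folate enzyme, was higher by 0.98 with Mn (adjusted p = 0.00546), 1.57 with MPP+ (0.00143) and 1.14 with 3-NPA (0.000694). Arg2, the mitochondrial arginase, was lower by -0.65 with Mn (adjusted p = 0.0157) and higher by 2.36 with MPP+ (0.000517) and by 1.75 with 3-NPA (0.00018). With Mn, Mthfd2l was higher by 0.90 (0.00492) and the creatine kinase Ckmt2 lower by -1.24 (0.00948). With MPP+, the mitochondrial phosphoenolpyruvate carboxykinase Pck2 (1.58, adjusted p = 0.000817) and the proline synthesis enzyme Aldh18a1 (1.44, 0.00295) were higher. With 3-NPA, Aadat, which makes oxoadipate, was higher by 2.82 (adjusted p = 0.000389), and Cpt1b, which makes the acylcarnitines that Slc25a20 carries, by 1.03 (0.000965).

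Markers of other cell types moved as well. Of the 5 fibroblast and mesenchymal markers tested, 2 were higher with Mn, 2 lower with MPP+, and 3 higher and 1 lower with 3-NPA. Their summed level, on a linear scale where 1 is the 75th percentile of the array, was 1.49 to 1.71 in control, 2.29 to 2.34 with Mn, 1.41 to 1.47 with MPP+ and 3.11 to 3.28 with 3-NPA. Of the 6 microglia markers 3 were higher with 3-NPA and 0 were called with Mn or MPP+, and their sums were 0.503 to 0.610 in control, 0.638 to 0.660 with Mn, 0.379 to 0.454 with MPP+ and 0.794 to 0.820 with 3-NPA. Of the 6 oligodendrocyte markers 3 were higher with 3-NPA and 0 were called with Mn or MPP+, with sums of 0.364 to 0.388, 0.336 to 0.391, 0.342 to 0.364 and 0.367 to 0.408 in the same order. Of the 3 astrocyte markers 1 was lower with each toxin and 1 higher with MPP+ and with 3-NPA, with sums of 0.453 to 0.455, 0.333 to 0.362, 0.382 to 0.395 and 0.412 to 0.419. Of the 2 pan-neuronal markers tested 1 was higher with each toxin and 1 lower with 3-NPA, with sums of 1.60 to 1.67, 2.00 to 2.70, 2.21 to 2.37 and 4.26 to 4.75. The median log2 changes with Mn, MPP+ and 3-NPA were 0.42, -0.32 and 0.48 for microglia markers and 0.21, -0.02 and 0.55 for oligodendrocyte markers. They were 0.09, 0.37 and 0.34 for astrocyte markers and -0.08, 0.0009 and 0.48 for pan-neuronal markers. Over all genes 7.66%, 13.9% and 38.3% were called with Mn, MPP+ and 3-NPA. Above background on 0 arrays were Snap25, Syt1, Stmn2, Elavl3, Nefl and Nefm of the 9 pan-neuronal markers on the array, Ptprc and P2ry12 of the microglia list, Olig2 of the oligodendrocyte list, Dcn, Lum and Thy1 of the fibroblast list, and S100b and Slc1a2 of the astrocyte list. Above background on all 8 arrays were 5 of 8 microglia markers on the array, namely Aif1, Itgam, Cx3cr1, Tmem119 and Cd68. So were 2 of 9 pan-neuronal, 2 of 7 astrocyte, 2 of 8 fibroblast and 1 of 8 oligodendrocyte markers. The part of these markers in the differences of the carriers was not tested.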

How the data were processed

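Total RNA of N27 cells was measured on 8 arrays, 2 for each of 4 groups. Per the file headers, spot intensity was read with Agilent Feature Extraction 11.5.1.1, which subtracted background and detrended each array but did not normalize between arrays. The deposited value table of log2 values was made by a step that is not stated, and its columns correlated at 0.9966 to 0.9997 with the arrays, about whose 75th percentile they appear to be centred.

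Outlier spots and 39 probes with every spot so marked were left out. Spots of a probe were averaged as log2 processed signal, and the 75th percentile of each array was set to 0. The 19460 probes with more than 0.5 of their spots well above background on both arrays of a group were kept, and the brightest stood for its gene. A limma 3.58.1 (R 4.3.3) fit of group means over all arrays, with 4 residual and 2.06 prior degrees of freedom, gave 6 comparisons. The smallest exact permutation p for 2 arrays against 2 is 0.333, so none was used. The fit was tested on simulated data. Where a group was below background on both arrays, a fold is given as a bound. It is taken against the lowest signal above background. RefSeq accessions matched 48 of 59 carrier probes, each to the same symbol. No probe of Slc25a6, Slc25a12, Slc25a13, Slc25a26, Slc25a36 or Slc25a40 was matched, so these names rest on the array alone. Of 44 genes, 37 had a promoter. Slc25a30 and Slc25a37 had none in that table. Of the carrier genes, 1 is counted but not reported here by name or value.

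Per-array values were to be given for carrier genes called with a toxin and for Slc25a1, Slc25a3, Slc25a4, Slc25a5, Slc25a10, Slc25a11, Slc25a12, Slc25a13, Slc25a28, Slc25a37 and Ucp2, and up to 4 genes per further list and toxin were named by smallest p. The members, lists and rules were chosen with earlier results of these data known, and the cAMP response element after the promoters were read. Substrate types came from general knowledge of the family. Equal replicate numbers correlated from -0.02 to 0.50 in their deviations from the group means. The value of 0.50 was that of Mn and 3-NPA, which may share a source of spread. The other 5 of 6 pairs stayed at or under 0.1, and the numbers were not taken to pair the arrays.

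The alternatives were normexp background correction (offset 50), scaling by quantiles or by array medians, the values of the deposited table, other filters and probe rules, other variance models, a replicate block, the 4 arrays of a pair, the 6 arrays of the first extraction run, and leaving out each array. The alternatives for the toxin pairs of single genes, and medians with bounds, were added after seeing the data. Saturated probes were not left out, since 0 spots were saturated.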

Additional observations from a re-analysis of the deposited data

How the results depend on the processing

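The Mn count of 2 became 4 with normexp, 1 with the median of each array, 8 without a filter on dim probes, 1 with the mean over probes, 4 with trend and robust variances, and 0 with array weights, with the 6 arrays of the first extraction run and with the 4 arrays of the pair. The MPP+ count of 5 became 8 with normexp, 12 without a filter, 8 with genes above background on all 8 arrays and 2 with the 4 arrays of the pair. Between MPP+ and Mn, 3 became 5 with trend and robust variances, between 3-NPA and Mn 10 became 6 without a filter, and between 3-NPA and MPP+ 13 became 26 with array weights. The share of all genes called moved too, from 7.66% to 26.9% with Mn without a filter and from 31% to 47.3% between 3-NPA and MPP+ with array weights.

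Leaving out each array gave 0 to 3 with Mn, 1 to 6 with MPP+, 7 to 12 with 3-NPA, 1 to 3 between MPP+ and Mn, 3 to 11 between 3-NPA and Mn and 4 to 15 between 3-NPA and MPP+. A lone array left in a group is then assumed to vary like the other groups. The median changes ran from 0.0917 to 0.199 with MPP+ and from -0.108 to 0.0238 with 3-NPA. A block of the replicate number, which the labels do not define, gave 2 with Mn, 5 with MPP+ and 14 with 3-NPA.

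The median change with MPP+ was 0.0548 with normexp, 0.27 with the median of each array and 0.0831 without a filter. With 3-NPA it was -0.22 with the median of each array, -0.14 without a filter, 0.0469 with the mean over probes and -0.021 with every probe on its own. Between 3-NPA and Mn it was -0.21 with the median of each array. Between 3-NPA and MPP+ it was -0.0773 with normexp, -0.41 with the median of each array, -0.0482 without a filter, -0.24 with genes above background on all 8 arrays, -0.0935 with a share of at least 0.5 of the spots and -0.22 with every probe on its own. That scaling moved the median of all genes from 0.02 to 0.13 with MPP+, from 0.05 to -0.09 with 3-NPA, from 0.06 to -0.16 between 3-NPA and Mn and from 0.03 to -0.23 between 3-NPA and MPP+. The share of calls over all genes that were higher was 58.8% with Mn, 53.6% with MPP+ and 58.2% with 3-NPA, and with it 69.9%, 71.5% and 42.6%. The mean over probes gave Slc25a40 with 3-NPA 0.42 against control and 0.73 against Mn, where the main values were lower. It takes in a probe below background on the control and Mn arrays, so the value against control fixes no direction, while against Mn that probe alone was at least 1.76-fold higher. For the other changes the cause was not tested. Dim signal left 8 of the 44 genes untested. Over the called changes against control, 312 of 384 values under alternatives kept direction and call, 71 lost the call and 1, that mean, changed sign.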
